A study of Mus musculus with 2 samples.

Results

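The genes of the route that leads leukemia inhibitory factor (LIF) signalling to Oct4 were examined in a map of Bcl3 binding. They are Lifr, Socs3, Bcl3, Pou5f1, Nanog and Myc, 6 of 21896 protein-coding genes, taken by name from the annotation sheets of the authors' peak list. Together they were listed for 9 of the 1130 peaks. The series is a chromatin immunoprecipitation sequencing (ChIP-seq) experiment in CGR8, a mouse embryonic stem cell line, with 1 anti-Bcl3 library and 1 input library. Both libraries came from cells kept in maintenance medium with 1000 U/ml LIF and 15% serum replacement on 0.1% gelatin. The labels give no genotype, treatment or time that differs, so LIF was present throughout, and there is a single cell line. A peak list holds no expression values, so the cell identity could not be checked against marker genes. There were no replicates, so no spread between libraries exists and no test compares samples.

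LIF binds a receptor made of the Lifr chain and gp130 (Il6st), which activates JAK kinases and the transcription factor STAT3. STAT3 in turn induces Socs3, an inhibitor that closes a feedback loop on the receptor, and in mouse embryonic stem cells it sustains self-renewal. Bcl3 is an atypical IκB protein that works in the nucleus with NF-κB p50 and p52 dimers rather than holding them in the cytoplasm. Pou5f1 encodes Oct4, which together with Nanog holds cells in the pluripotent state, and Myc is a growth regulator that STAT3 is known to induce in these cells. The published study behind the series places Bcl3 between LIF with STAT3 and Oct4, and the listed peaks show where Bcl3 was found relative to these genes.

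The sequences at the Lifr starts are shown first, because Lifr alone had peaks at a transcription start. They are RefSeq windows of build GRCm38.p6 that run from 250 bases before a start to 50 bases after it, written 5′ to 3′ on the strand of the gene. The start windows of Socs3 and Bcl3 follow, since the only matches to the motifs searched among the windows of these genes lie there. Capitals mark a motif match, and windows without capitals hold none.
Lifr upstream start, chr15:7129322-7129621, plus strand: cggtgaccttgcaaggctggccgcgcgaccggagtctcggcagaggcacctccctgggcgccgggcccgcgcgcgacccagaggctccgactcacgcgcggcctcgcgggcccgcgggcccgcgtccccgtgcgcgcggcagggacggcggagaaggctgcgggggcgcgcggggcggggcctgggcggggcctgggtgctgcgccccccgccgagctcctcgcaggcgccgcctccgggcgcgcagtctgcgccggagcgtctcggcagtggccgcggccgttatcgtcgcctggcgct
Lifr downstream start, chr15:7140292-7140591, plus strand: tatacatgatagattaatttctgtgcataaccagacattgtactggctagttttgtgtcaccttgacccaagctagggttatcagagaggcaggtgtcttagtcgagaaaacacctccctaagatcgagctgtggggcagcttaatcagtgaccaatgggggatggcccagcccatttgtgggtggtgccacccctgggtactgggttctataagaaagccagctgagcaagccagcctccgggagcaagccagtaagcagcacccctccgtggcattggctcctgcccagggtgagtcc
Socs3, chr11:117969317-117969616, minus strand: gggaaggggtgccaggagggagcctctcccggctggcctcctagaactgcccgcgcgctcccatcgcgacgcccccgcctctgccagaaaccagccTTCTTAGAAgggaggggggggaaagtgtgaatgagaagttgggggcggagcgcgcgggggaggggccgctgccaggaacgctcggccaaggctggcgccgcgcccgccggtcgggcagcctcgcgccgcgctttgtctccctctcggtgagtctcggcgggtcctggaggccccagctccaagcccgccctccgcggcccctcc
Bcl3, chr7:19822706-19823005, minus strand: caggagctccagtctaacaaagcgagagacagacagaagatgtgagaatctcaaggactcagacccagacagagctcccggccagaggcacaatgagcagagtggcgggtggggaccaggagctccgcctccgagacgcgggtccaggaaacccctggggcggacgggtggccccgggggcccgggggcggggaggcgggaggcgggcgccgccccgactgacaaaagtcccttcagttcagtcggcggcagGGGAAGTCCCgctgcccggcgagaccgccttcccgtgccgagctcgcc

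The upstream Lifr window is one of the richest in G and C. Its G and C content was 81.3% with 53 CpG dinucleotides, against 53.3% and 4 in the downstream window and a median of 52.7% and 7 over 32851 RefSeq start windows. Of all windows, 99.3% had a lower G and C content than the upstream one and 51.4% than the downstream one. The 3 motifs, searched on both strands, were the STAT dimer motif TTCNNNGAA, the octamer ATGCAAAT bound by Oct4, and the κB consensus. Over all windows the STAT motif was found in 8.30%, the octamer in 1.74% and the κB consensus in 8.46%. The Socs3 match, TTCTTAGAA, begins 154 bases before the start. The Bcl3 match, GGGAAGTCCC, is a κB site that begins 2 bases after the start. Both read as a match on either strand. Start windows were matched for 5 of the 6 genes, Lifr, Socs3, Bcl3, Pou5f1 and Nanog, and not for Myc. A match is a description of letters, and the absence of one says only that those letters are not in the window.

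Lifr, the receptor chain that gives LIF its specificity, was the only one of the 6 genes with peaks at a start. The first peak, chr15:7079575-7079824 in mm9, had a log2 fold enrichment of 3.26, which is 9.59-fold. It lay 4 to 253 bp downstream of the start of the listed transcript NM_001113386, whose noncoding exon 1 holds both its midpoint and its summit. The second peak, chr15:7079200-7079399, had a value of 2.97, or 7.82-fold, and ended short of the same start. The midpoints lay 128.5 bp downstream and 271.5 bp upstream of that start, so the peaks stood on either side of it. Fold enrichments here are the authors' greatest values within each peak, and the header names no denominator. False discovery rates were 0.183 and 0.296, and −log10 Poisson p-values 5.55 and 5.78.

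**Figure D1:**
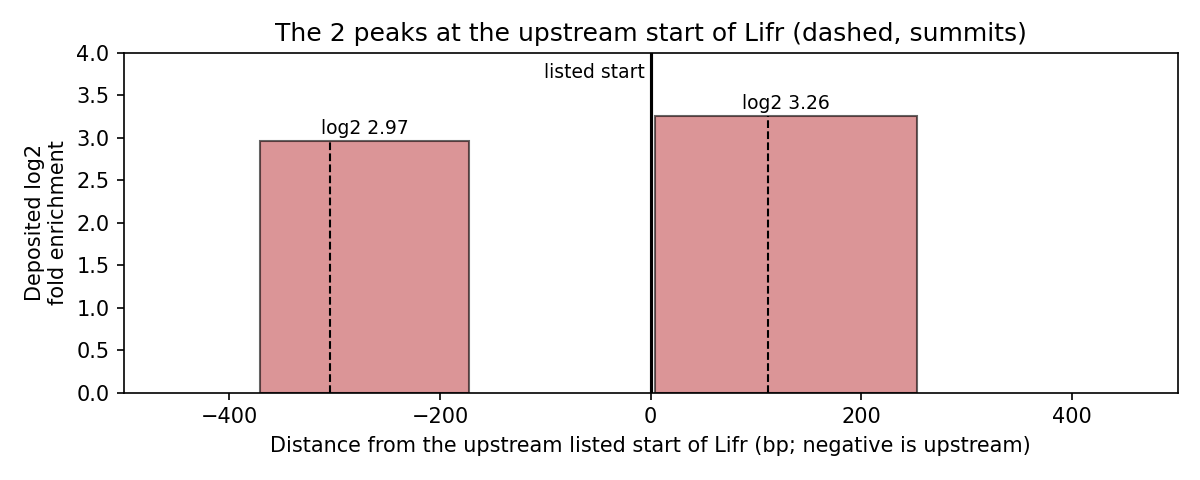
Each bar spans a peak along the distance from the upstream listed start of Lifr in bp, with its height the deposited log2 fold enrichment and a dashed line at its summit. The bars reach 2.97 upstream and 3.26 downstream of the start, with 175 bp between them.

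The 2 Lifr peaks were closer to each other than any other neighbouring pair on a chromosome. They were 175 bp apart and their summits 415 bp apart, whereas the median gap over 1109 neighbouring pairs was 1385 kb and 10 pairs lay within 1 kb. Beyond this pair the next peaks were 2353 kb upstream and 1689 kb downstream. They count as 1 region where peaks within 1 kb are merged. Lifr was 1 of 4 genes with 2 peaks within 1 kb of a single listed start, together with the histone gene H1f3, the ribosomal protein gene Rps27a and the ubiquitin gene Ubb. These 3 genes were named after their values were seen.

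The authors' sheets place the Lifr peaks differently because they list different transcripts. The wider annotation gives only NM_013584, which starts 10.97 kb farther downstream, so there the peaks lay 10.84 and 11.24 kb upstream of Lifr. RefSeq has 2 Lifr windows 10970 bp apart, against 10969 bp between the 2 mm9 starts, which is why the first window is given as the upstream start. That upstream window is also the G and C rich one. The part of base composition in the enrichment was not tested. No other gene start was listed between these peaks and Lifr, and the next gene, Osmr, which encodes the oncostatin M receptor, had its start 255.4 kb from the first peak.

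Socs3, the STAT3-induced inhibitor of the receptor, had 1 peak in its upstream flank. The peak, chr11:117836250-117836449, was enriched 6.34-fold (log2 2.67), at a false discovery rate of 0.485 and a −log10 Poisson p of 5.31. It was placed 5.67 kb upstream of the start in the closest-transcript sheet and 5.87 kb upstream in the wider annotation, whose starts for NM_007707 differ by 204 bp. It was intergenic, and no gene start was listed between it and Socs3. On its other side Pgs1, which encodes an enzyme of phospholipid synthesis, started 11.82 kb away. By fold enrichment the peak ranked 943 of 1130, so 16.5% of all peaks were weaker. The STAT motif match printed above lies at the Socs3 start, which this peak does not reach.

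Bcl3 itself had no listed peak near its start. Its listed peak, chr7:20288475-20288674, lay 119.5 kb downstream of the start and past the end of the gene. It was enriched 6.50-fold (log2 2.70), at a false discovery rate of 0.463. Its midpoint and summit lay in intron 7 of Tomm40, a mitochondrial import gene, and the nearest listed start was that of Apoe, the lipid carrier apolipoprotein E, 4.06 kb away. The starts of 4 genes, Tomm40, Nectin2, Bcam and Cblc, lay between the peak and Bcl3. The same peak was the nearest one to Relb, an NF-κB subunit gene on the side away from Bcl3, at 73.8 kb. The peak ranked low by fold enrichment (892) but high by Poisson score, at rank 125 with 7.59, the highest score of the 9 peaks. The sheets list no peak at the κB match shown above, and another peak on this chromosome, 708.4 kb from Bcl3, was not annotated to it.

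Pou5f1, the Oct4 gene, had the strongest of the 9 peaks by fold enrichment, but inside another gene and far from its own start. The peak, chr17:35385825-35386149, was enriched 11.12-fold (log2 3.48). Its false discovery rate, 0.179, is the lowest in the list and is shared by 238 peaks. It lay 257.0 kb upstream of the Pou5f1 start, inside Ddx39b (listed also as Bat1a), an RNA helicase gene, with its midpoint in coding exon 6 and its summit in intron 6. The Ddx39b start was 6.23 kb away. Between the peak and Pou5f1 were the starts of 8 genes, namely H2-D1, LOC547349, H2-Q1, H2-Q2, H2-Q8, H2-Q6, H2-Q7 and H2-Q10. Those with H2 names are class I histocompatibility genes, which present peptides at the cell surface. By fold enrichment the peak ranked 91, above 91.4% of all peaks, but by Poisson score (5.10) it ranked 1039, above 8.05% of them.

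A direct search of all peaks on chromosome 17 added nothing nearer to Pou5f1. Within 1 Mb there were 3 peaks, of which 2 were not annotated to the gene, at 358.2 kb upstream (log2 fold enrichment 2.78) and 657.7 kb downstream (2.95). The nearest starts to these were of Bag6 and Gm8909. A Pou5f1 promoter peak was therefore not in the list, and since the read depth is unknown, binding below the detection limit of this library could not be assessed.

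Nanog, the homeobox partner of Oct4, had 2 listed peaks, 1 on each side. The nearer, chr6:122613000-122613124, lay 44.5 kb upstream of the start and was enriched 6.11-fold (log2 2.61). Its false discovery rate, 0.529, was the highest of the 9. It was intergenic with no listed start between it and Nanog, and it was closer to Dppa3, a germline and early embryo factor gene, 36.6 kb away. An enhancer active in mouse embryonic stem cells is known between Dppa3 and Nanog, and whether the peak lies on it was not tested. The other peak, chr6:122754450-122754649, lay 96.96 kb downstream of the Nanog start and was enriched 7.36-fold (log2 2.88), with a false discovery rate of 0.336. Its nearest start was of Foxj2, a forkhead factor gene, 15.98 kb away. The start of Slc2a3, a glucose transporter gene, lay between it and Nanog, as did an entry LOC634428 that starts 215 bp inside Nanog.

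**Figure D2:**
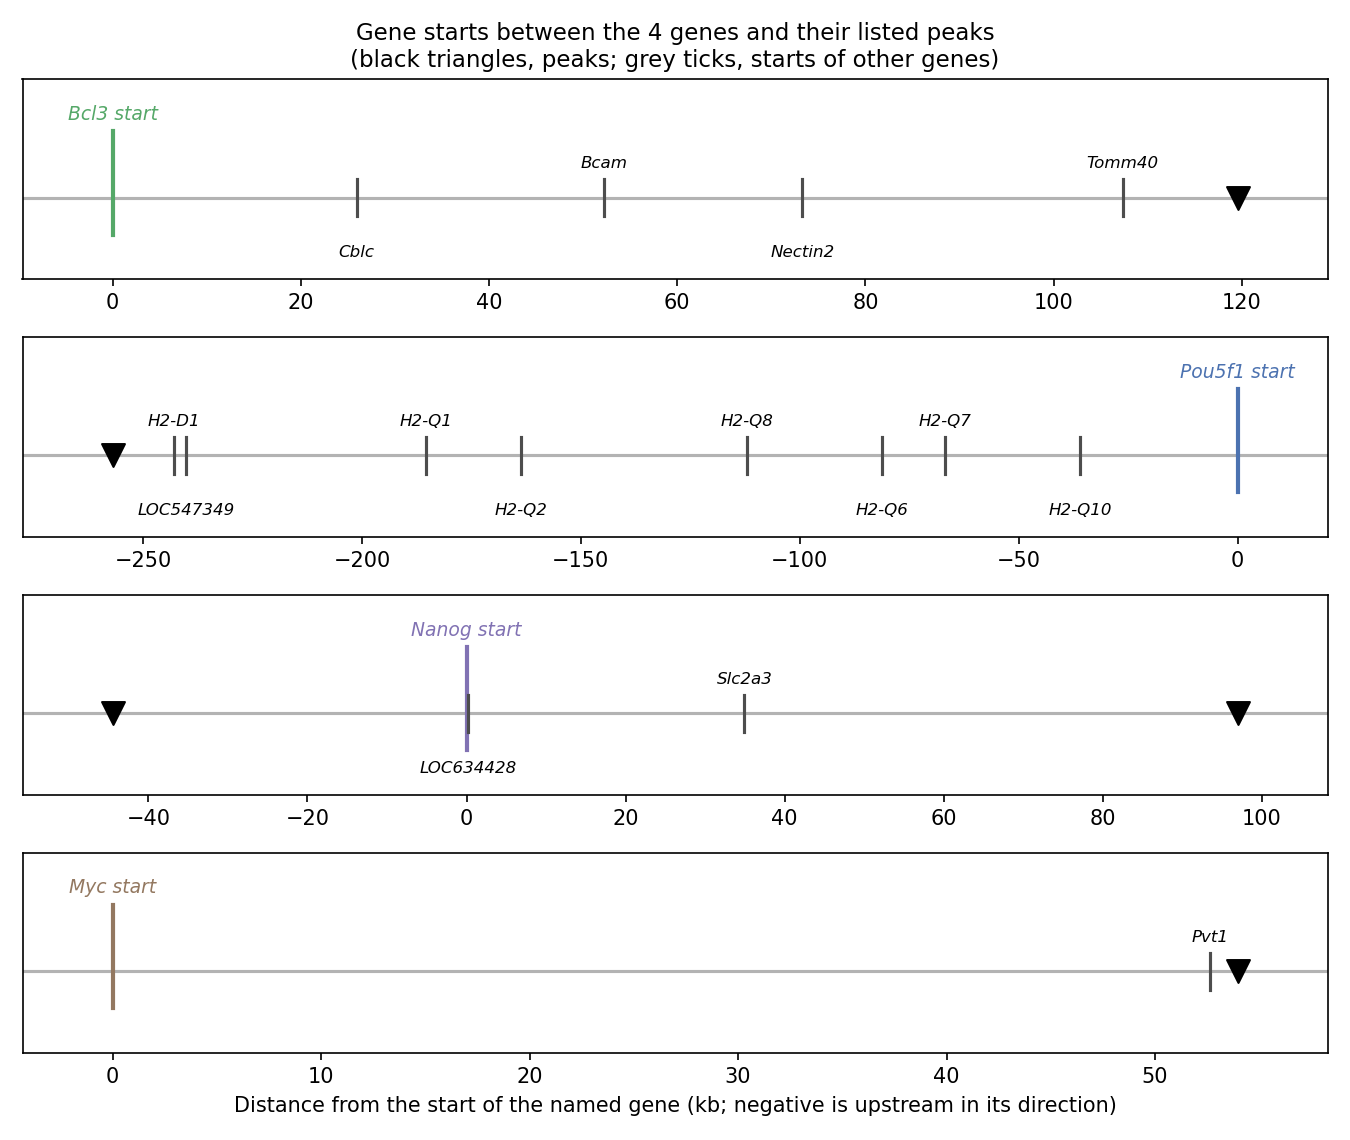
Positions of peaks (triangles) and of listed gene starts (ticks) along the distance in kb from the start of Bcl3, Pou5f1, Nanog and Myc, with negative values upstream in the direction of each gene. Between the gene and its peak lie 4 starts at Bcl3, 8 at Pou5f1, and Pvt1 alone at Myc, while no start lies between Nanog and its upstream peak. The Myc peak 530.9 kb upstream is off the axis.

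Myc also had a peak on each side. The nearer, chr15:61870800-61870899, lay 53.95 kb downstream of the Myc start and was enriched 6.31-fold (log2 2.66), with a false discovery rate of 0.485. In the closest-transcript sheet it belonged to Pvt1 (NR_003368), a long noncoding RNA gene, in intron 1 and 1308.5 bp downstream of the Pvt1 start. The wider annotation holds only NM entries, and Pvt1 is absent from it, so that sheet attributes the peak to Myc alone. In human cells the PVT1 promoter is known to compete with MYC for enhancers. The other peak, chr15:61285900-61286074, lay 530.9 kb upstream in intergenic sequence. It was enriched 7.33-fold (log2 2.87), with a false discovery rate of 0.336. No listed start lay between it and Myc, and the other gene listed for it, A1bg, was 533.2 kb away on the far side.

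**Figure D3:**
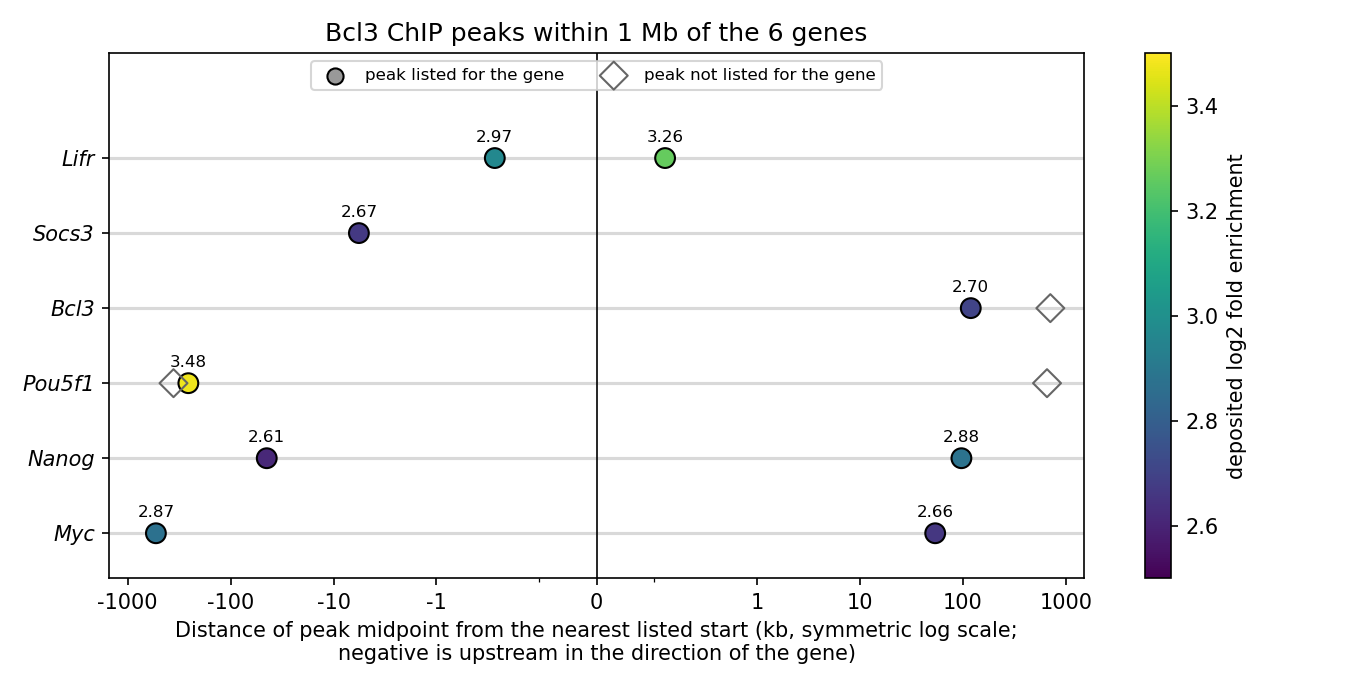
Every peak within 1 Mb of the 6 genes, by distance of its midpoint from the nearest listed start (kb, symmetric log scale), with circles coloured and labelled by log2 fold enrichment and open diamonds for peaks not annotated to the gene. Lifr has peaks within 0.3 kb on both sides, Socs3 one at 5.67 kb, and the nearest of the other genes lie 44.5 to 257.0 kb away.

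Among the 6 genes, the listed peaks lay nearest to the starts of Lifr and Socs3 and farthest from that of Pou5f1. The distance to the nearest listed peak was 128.5 bp for Lifr, 5.67 kb for Socs3, 44.5 kb for Nanog, 53.95 kb for Myc, 119.5 kb for Bcl3 and 257.0 kb for Pou5f1. Among the 21896 protein-coding genes, 41 had a listed peak nearer than that of Lifr, 316 nearer than that of Socs3, 1211 than that of Nanog and 1413 than that of Myc. For Bcl3 this number was 2665 and for Pou5f1 4740, which is 21.6% of all protein-coding genes. Genes without a listed peak cannot be nearer, and the 6 genes are all listed. Among the 8878 listed protein-coding genes the share nearer was 0.462% for Lifr, 3.56% for Socs3 and 13.6% for Nanog. It was 15.9% for Myc, 30.0% for Bcl3 and 53.4% for Pou5f1. With 1 library these positions have no measured error, and the order of Nanog and Myc, which differ by under 10 kb, is not a measured difference.

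**Figure D4:**
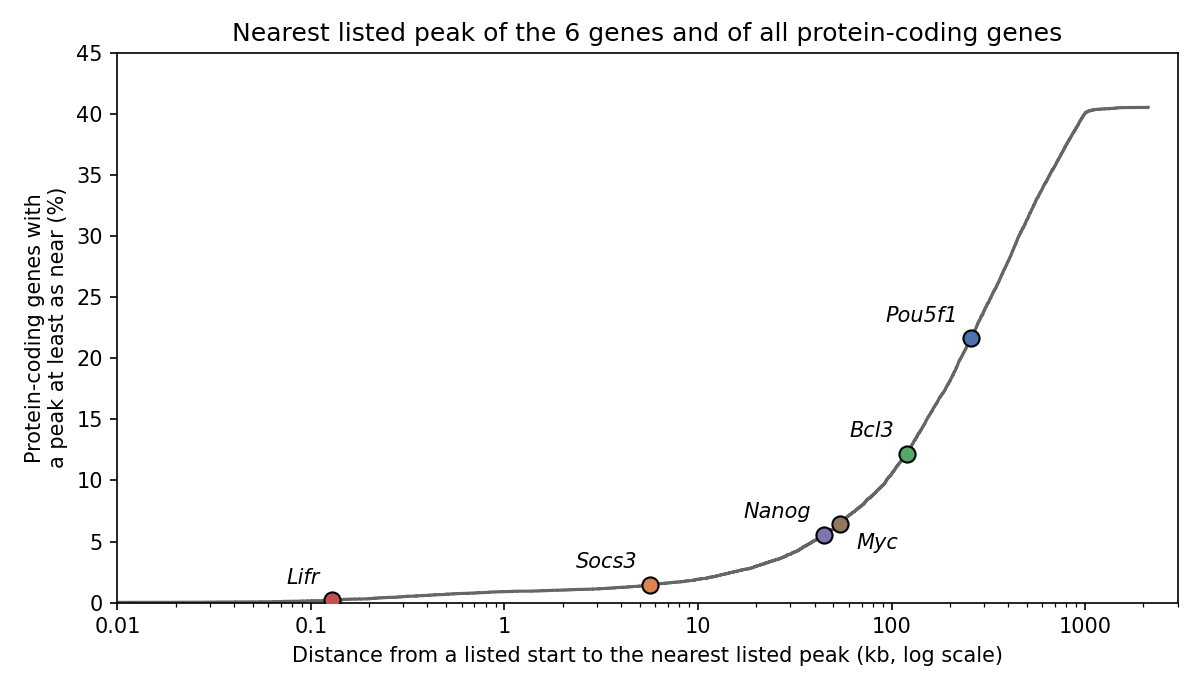
The grey line gives the percentage of 21896 protein-coding genes with a listed peak at least as near as the distance on the x axis (kb, log scale), and points mark the 6 genes. Lifr and Socs3 lie at the low end, at 0.187% and 1.44%, and Pou5f1 at 21.6%. Genes without a listed peak are in the denominator, and among the 8878 listed genes the share nearer than that of Pou5f1 was 53.4%.

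Of the 6 genes, 2 (Lifr and Socs3) were named in the closest-transcript sheet, as were 2.52% of all protein-coding genes. A peak within 5 kb of a listed start was found for 1 (Lifr), against 1.35% of all, and a peak within 100 kb for 4, against 10.5%. With only the 238 peaks at the lowest false discovery rate, these counts of 2, 1 and 4 fell to 0, 0 and 0, and Pou5f1 was the only one of the 6 genes with a listed peak. With the 565 peaks of greater Poisson score they were 0, 0 and 1, and with the 565 of greater fold enrichment they were 1, 1 and 1. Shares of all protein-coding genes were not computed for these smaller peak sets, so the lower counts have no background and are no result about the 6 genes. All 6 were listed for some peak, which follows from taking them by name from these sheets and is no finding. Of all protein-coding genes 40.5% (8878) were listed, since the wider annotation reaches far from a peak. The shares of 2.52%, 1.35% and 10.5% are over all 21896 genes. The genes behind them, 552, 296 and 2308 in turn, all lie among the 8878 listed. Set against listed genes alone, as the 6 are by choice, each share would be larger. The genes were chosen with earlier results of these data known, so these shares are descriptions and no test was run on them. The gene itself was the closest transcript for 3 of the 9 peaks, namely both Lifr peaks and the Socs3 peak. The matching share over all genes and their listed peaks was not computed, so this count has no background. Of the rest, 3 were assigned to Ddx39b, Tomm40 and Pvt1, and 3 had no closest transcript, as had 507 of all 1130 peaks.

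In strength the 9 peaks lay within the range of the list. Their log2 fold enrichments lay between 2.61 and 3.48 (median 2.87), and those of the other 1121 peaks between 2.48 and 4.02 (median 2.93). The median −log10 Poisson p was 5.78 against 5.80, and the median length 200 bp in both. Above the median fold enrichment of all peaks were 3 of the 9 (Pou5f1 and both of Lifr), and above the median Poisson score were 4 (Bcl3, both of Nanog and the distant one of Myc). The 2 measures picked out different peaks, and no peak of the 9 was above both medians. False discovery rates ran from 0.179 to 0.529, with a median of 0.336 against 0.296 in the other peaks. By place, 5 of the 9 were intergenic, against 60.8% of the other peaks.

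**Figure D5:**
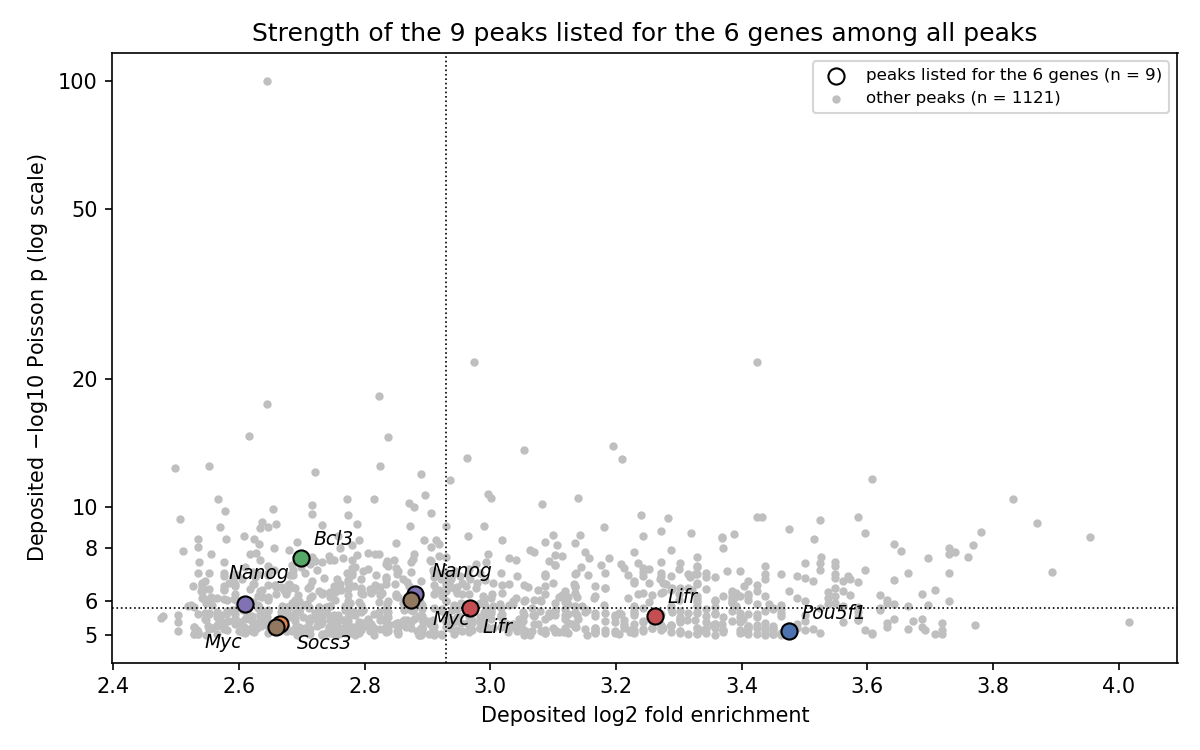
Deposited log2 fold enrichment against −log10 Poisson p (log scale) for the 9 peaks of the 6 genes (coloured) and the 1121 other peaks (grey), with dotted lines at the medians of all peaks. Pou5f1 and Lifr lie to the right but at or under the median score, and Bcl3 has the highest score of the 9 at 7.59 but a log2 fold enrichment of only 2.70.

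The other genes of the route fell into 5 lists of 84 genes, of which 6 were named in the closest-transcript sheet (2.52% of all protein-coding genes were). Of the receptor and JAK-STAT list 0 of 15 were, although 7 were annotated to some peak. The shortest distance there was for Socs1, an inhibitor related to Socs3, with a peak 49.7 kb upstream at a log2 fold enrichment of 3.09. The closest transcript of that peak was of A630055G03Rik. Lif, Jak1, Tyk2 and Stat3 were annotated to no peak, and Il6st, the partner chain of Lifr, had its nearest peak 736.7 kb away. Of the MAPK and PI3K arms 0 of 23 were closest genes, with Gsk3a, a kinase of the PI3K and WNT pathways, nearest at 10.66 kb (3.24). The Gsk3a peak had its summit in intron 1 of Erf, its closest transcript.

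In the list of STAT3 targets 1 of 12 genes was closest, Tfcp2l1, a naive pluripotency factor, with a peak in intron 2 at 23.9 kb from the start (2.77). The nearest peak to a start in that list was for Mcl1, a survival gene, at 16.2 kb (3.60), although its closest transcript was of Adamtsl4. None of the 15 NF-κB and IκB genes was a closest gene. Nfkbie, an IκB gene, came nearest, with a peak 11.27 kb away at a log2 fold enrichment of 2.72. The closest transcript of that peak was of Slc35b2, with the summit in exon 3. In the Oct4 network 5 of 19 genes were closest genes. These were the transcription factor genes Esrrb (3.77), Klf2 (3.40 and 2.73) and Zfp42 (2.82), together with Dppa5a (3.14) and the growth factor gene Fgf4 (3.08). Zfp42 was nearest, with the peak in intron 1 at 1037.5 bp from its start. Sox2, the partner of Oct4, had its nearest listed peak 658.9 kb away.

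By distance, 8 of 19 genes of the Oct4 network (42.1%) had a listed peak within 100 kb of a start, against 10.5% of all protein-coding genes. The shares were 26.7% for NF-κB and IκB, 3 of 12 for STAT3 targets, 13.3% for the receptor and JAK-STAT list and 13.0% for the MAPK and PI3K arms. The median distance over the listed genes was 77.1 kb for the Oct4 network and 232.4 kb over all listed protein-coding genes. It was 177.0 kb for NF-κB and IκB, 185.9 kb for STAT3 targets, 380.3 kb for the receptor list and 283.8 kb for the MAPK and PI3K arms. Medians cover only genes that the sheets list, and 47 of the 84 were listed. Some peaks counted for more than 1 gene, so the shares are not separate observations. The same peak was nearest to Fgf4 in the Oct4 network and to Ccnd1 among STAT3 targets. The nearest peaks of Dppa3 and Relb were also those of Nanog and Bcl3. The lists were drawn up with earlier results of these data known, the Oct4 network among them, so they are no independent evidence of a direction.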

How the data were processed

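Per the labels, enzyme-digested nuclei were precipitated with an anti-Bcl3 antibody and sequenced beside an input. All values come from the deposited peak workbook of the ChIP library. Its positions are in mm9 (submitters' processing notes). How the authors aligned reads, called peaks and used the input is not given in the sources used here. A peak carries the authors' greatest log2 fold change, a deposited T score, a deposited −log10 Poisson p-value, and a deposited false discovery rate, read here as a q-value. Annotation sheets add genes, starts and distances, and a summary sheet marks intergenic peaks. The input library was not analysed here, and the read depth is unknown.

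Distances run from the peak midpoint to each listed transcript start, read from the wider annotation (14602 entries, 14536 matched) and the closest-transcript sheet (623 entries, all matched). Entries were matched by gene identifier where given, then by accession, symbol or synonym, to the RefSeq genes of GRCm38.p6, which gave only names and gene class. Its start windows are separate from the mm9 positions, and no coordinates were converted between builds. A gene between a peak and another gene is one whose listed start lies between them, in either sheet. Python 3.11.15, pandas 2.3.3 and NumPy 2.4.6 were used, and the distance code recovered every distance in simulated data.

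The genes, the 5 lists and the windows of 5 and 100 kb were chosen with earlier results of these data known. Named from the lists are the closest genes of peaks and the gene of each list nearest to a peak, and, of the genes between, the one nearest to the peak. Other genes were named after their values were seen. Alternatives were other subsets of peaks, merged peaks, summits, other windows and the wider annotation alone.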

Additional observations from a re-analysis of the deposited data

How the results depend on the processing

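With 1 library per group no replicate could be left out. No paired analysis was possible because there is 1 ChIP library and no test between samples. When the 238 peaks at the lowest false discovery rate were kept, 0 of the 6 genes were a closest gene and 0 had a peak within 5 kb or within 100 kb, and 2 of the 84 list genes were a closest gene, against 6 with all peaks. With the 565 peaks of greater fold enrichment, 1 of the 6 genes was a closest gene and 1 had a peak within 100 kb (Lifr each time), against 2 and 4 with all peaks. Among the 565 with the greater Poisson score, 0 of the 6 were a closest gene, 0 had a peak within 5 kb and 1 had one within 100 kb, and 2 list genes were a closest gene. In these subsets 5, 4 and 3 of the 6 genes had no listed peak left and hence no distance: Pou5f1 alone kept one at the lowest false discovery rate, Lifr and Pou5f1 by fold enrichment, and Bcl3, Nanog and Myc by Poisson score. The nearest peak of Myc then changed sides with the Poisson subset, to -530908 bp. Within 10 kb 2 of the 6 genes had a peak, and with the wider annotation alone 0 had one within 5 kb, because that sheet lacks the upstream Lifr start. Shares of all protein-coding genes were not computed for the peak subsets, the 10 kb window or the wider annotation alone, so these counts have no background. Merging peaks within 1 kb left 8 of the 9 peaks and, like the use of summits, changed no count, and the other 17 recomputed distances stayed within a median peak length of 200 bp. The unknown depth and false discovery rates of 0.179 to 0.529 limit every statement about a single peak.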
